A study of Homo sapiens with 28 samples.

Results

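A set of 6 libraries of HCT116 cells was compared here, 3 cultures grown from xenograft tumors of mice given Palbociclib and Telaglenestat together (combination) and 3 cultures grown from tumors of vehicle-treated mice (Control). They were chosen by treatment label from the 28 libraries of the series, 12 of which are such ex vivo cultures, and all genes were considered. HCT116 is a human colorectal carcinoma line, and the xenografts were made with a Luciferase-GFP derivative injected under the skin of male NOD SCID mice 5 weeks old, which lack functional T and B cells. All mice were dosed daily for 23 days by mouth, with vehicle, with 100 mg/kg/day of Palbociclib, with 150 mg/kg/day of Telaglenestat, or with both at these doses. Each culture was a separate line from a separate tumor, and all lines were kept without drug before RNA was taken, so the drugs were present only while the cells were in the mouse. The link from a culture to a sequenced tumor is not given in the sources used here. The question was how far cells that outlived the combination still differed in their transcripts from cells of untreated tumors once the drugs were gone.

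Palbociclib blocks CDK4 and CDK6, the kinases that D-type cyclins activate to phosphorylate the retinoblastoma protein and release E2F factors for entry into S phase. Telaglenestat (CB-839) blocks the conversion of glutamine into glutamate in mitochondria, and glutamate is what GLUD1 and the transaminases pass on to the TCA cycle. Colorectal carcinoma cells draw on glutamine for respiration and for building nucleotides and amino acids.

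The 3 Control cultures held 7994079, 8244896 and 7198540 counts and the 3 combination cultures 7927350, 11376945 and 7906357, within the range of all cultures of 7198540 to 13815675. Markers of colorectal carcinoma were present, with 9 of 12 detected and a summed level of 1480 to 2110 CPM (counts scaled to library size, here by the library total alone) in Control and 1360 to 1570 CPM in combination cultures, while CEACAM5, CEACAM6 and LGALS4 were at 0 in both. Fibroblast markers summed to 8.61 to 12.6 CPM in Control and 11.5 to 17.7 CPM in combination cultures, macrophage and leukocyte markers to 0.606 to 3.33 and 0.506 to 1.51 CPM, and endothelial markers to 3.00 to 4.45 and 3.04 to 5.30 CPM. Of 13 fibroblast markers, 6 had a count in Control and 5 in combination cultures. For macrophage and leukocyte markers it was 7 and 6 of 13, and for endothelial markers 6 and 5 of 9. The leukocyte marker PTPRC, the fibroblast markers DCN and LUM and the endothelial marker CDH5 were at 0 in all 6 libraries. These are human genes, so they say little of host cells carried over from the mouse, whose reads were not separated here. In bulk RNA, fewer cells of a type and less RNA per cell cannot be told apart. The libraries also differed in how level varied with GC content of the gene, with slopes of 0.147, -0.0692 and 0.178 in Control and of -0.0828, -0.130 and -0.0641 in combination cultures, so values corrected for gene GC content and length are given where they change a result.

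Cultures from combination tumors lay about as far from Control cultures as Control cultures lay from each other. Over all tested genes, the median absolute difference in log2 CPM, from here on scaled by TMM, between 2 libraries was 0.237 within Control (3 pairs, 0.176 to 0.271), 0.199 within combination (3 pairs, 0.175 to 0.215) and 0.263 between the groups (9 pairs, 0.177 to 0.306). After correction, the 9 pairs between the groups had a median of 0.204, against 0.190 and 0.201 within the groups. The median between the groups thus stayed above both medians within groups, by less than before. These ranges overlap throughout, and the pairs share libraries, so no test was made of them.

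In the test of every gene, 1 gene passed the adjusted threshold, TICAM2, which encodes an adaptor of the Toll-like receptor TLR4 and was lower in combination cultures. Of 13985 genes tested with edgeR's quasi-likelihood test, 1 (0.00715%) passed an adjusted p of 0.05. Without adjustment, 895 genes had p under 0.05, 438 higher (3.13%) and 457 lower (3.27%) in combination cultures. That count was 2338 with only the 6 libraries compared and 2559 without the Telaglenestat cultures. Without Telaglenestat replicate 1, 2 or 3 it was 1560, 1851 and 1325. Without Control replicate 1, 2 or 3 it was 412, 1223 and 461. Without combination replicate 1, 2 or 3 it was 411, 622 and 649. After correction it was 756, with 2.76% of all genes higher and 2.65% lower. In 1530 genes (10.9%) every combination culture lay above every Control culture, and in 1453 (10.4%) every one lay below. The median log2 fold change was -0.0096 and the median absolute log2 fold change 0.196. The precision was enough to bound many genes, as the 95% interval of the log2 fold change lay within -1 to 1 for 9142 genes (65.4%) and for 89% of the 9211 genes with a mean of at least 3 log2 CPM. The p-values measure only the spread between these cultures, with 3 lines a group.

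TICAM2 (ENSG00000243414.5, chr5:115578650-115602479, minus strand, hg38) had 116, 141 and 95 counts in Control and 0, 0 and 0 counts in combination cultures. Its levels were 14.3, 17.4 and 13 CPM in Control, 7.62, 7.17 and 13.9 CPM in Palbociclib, 10.5, 1.81 and 10.6 CPM in Telaglenestat and 0 CPM in every combination culture. The combination cultures were at least 44.1-fold lower than Control, taking 3 counts per library as the limit that a count of 0 allows (edgeR adjusted p = 0.0257). The call was lost when any of the 6 compared libraries was left out, with edgeR adjusted p between 0.0927 and 0.205, while the log2 fold change, whose size depends on the prior count, stayed between -10.18 and -9.96. It was also lost without Palbociclib replicate 1 or 2 or Telaglenestat replicate 1 (edgeR adjusted p = 0.0591, 0.0721 and 0.051). With only the 6 libraries compared, edgeR adjusted p was 4.4e-05.

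The TICAM2 gene lies inside TMED7-TICAM2, an annotated readthrough gene (ENSG00000251201.8, chr5:115578642-115626161, minus strand, hg38) that joins TICAM2 to its neighbour TMED7, which encodes a cargo receptor of the early secretory pathway. Its pattern was the opposite one, with 0, 18 and 9 counts in Control and 146, 179 and 105 counts in combination cultures, or 0, 2.22 and 1.23 against 18, 15.9 and 13.2 CPM (log2 fold change 3.76, edgeR adjusted p = 0.68). When the counts of both genes were added, the Control cultures stood at 14.3, 19.6 and 14.2 CPM (16 ± 3.09, SD, n = 3) and the combination cultures at 18, 15.9 and 13.2 CPM (15.7 ± 2.41, SD, n = 3). The summed locus gave a log2 fold change of -0.03 (edgeR adjusted p = 0.971) and left no gene called. The share of the summed counts given to TICAM2 ran from 0 to 100% across the 28 libraries and was also 0 in 1 Control tumor and 2 Telaglenestat tumors. Reads in the shared exons of overlapping genes could be given to either, and how they were shared out is not given in the sources used here, so the value of TICAM2 alone is uncertain. The part of that sharing in the call was not tested beyond the sum.

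None of CCND1, MKI67 and MYC was called, and their intervals lay within -0.38 to 0.22. CCND1, the D-type cyclin that activates CDK4 and CDK6, had 670, 695 and 647 CPM in Control and 614, 623 and 574 CPM in combination cultures, a log2 fold change of -0.15 with a 95% interval of -0.38 to 0.08 (edgeR adjusted p = 0.705). The groups did not overlap for CCND1, but the interval included 0. MKI67, the proliferation antigen, had 767, 784 and 766 CPM in Control and 677, 802 and 712 CPM in combination cultures (log2 fold change -0.08, interval -0.38 to 0.22). MYC, the transcription factor of growth and ribosome production, had 182, 184 and 211 CPM against 191, 163 and 188 CPM (log2 fold change -0.09, interval -0.37 to 0.19). After correction for GC content and length the log2 fold change of MYC was 0.07, so its sign depended on that correction. Values of MKI67 and MYC overlapped between the groups. Annotated antisense genes overlap CCND1 and several genes described further on, among them CDKN1A, GLUD1, SLC2A1, PDK1, P4HA1 and PLOD2. Whether the counting used strand is not given in the sources used here, so the values of such genes are uncertain to that extent.

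CDKN1A, the p21 inhibitor of cyclin-dependent kinases, had 134, 101 and 128 CPM in Control and 107, 92.8 and 101 CPM in combination cultures (log2 fold change -0.27, interval -0.58 to 0.03), and its log2 fold change became 0.02 after correction for GC content and length. Its direction thus depended on that correction. Of the other members of this pathway, chosen for display after their values were seen, CDK4 had a log2 fold change of -0.29, CDK6 of -0.19, CCNE1 of -0.26, E2F1 of -0.33 and RB1 of 0.09. Among 26 tested genes of D cyclins, CDK4/6 and CDK inhibitors, none was called, and unadjusted p was under 0.05 for CDKN1B, the p27 inhibitor, which was higher (log2 fold change 0.32), and for CCND3, which was lower (-0.65). Log2 fold changes over this list ran from -0.65 to 0.71. The lists of S phase genes (46 tested, median log2 fold change -0.148) and of G2/M genes (52 tested, median -0.047) also held no call. At unadjusted p under 0.05, 3 G2/M members and no S phase member were lower, where 3.27% of all genes were. After correction it was 0 G2/M members, and the G2/M median was -0.105.

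Genes of glutamine use also held no call. GLUD1, which turns glutamate into 2-oxoglutarate, had 262, 300 and 260 CPM against 288, 301 and 285 CPM (log2 fold change 0.09, interval -0.13 to 0.31), and GLUL, glutamine synthetase, had 166, 149 and 158 against 150, 157 and 158 CPM (-0.02, interval -0.21 to 0.17). Both intervals lay within -1 to 1. Across the 24 tested genes of glutamine and glutamate handling the median log2 fold change was -0.043, and 0.087 after correction, so the median changed sign. At unadjusted p under 0.05, the glutamine transporter SLC38A1 was higher, with 624, 649 and 698 CPM against 764, 750 and 841 CPM (log2 fold change 0.26), and SLC38A5, another glutamine transporter, was lower, with 27.6, 22.5 and 31.8 CPM in Control and 19 CPM or less in every combination culture (-0.74). After correction the log2 fold change of SLC38A1 was 0.13 (edgeR unadjusted p = 0.286) and that of SLC38A5 was -0.47 (edgeR unadjusted p = 0.0301). Asparagine synthetase, ASNS, had 327, 292 and 422 CPM in Control and 815, 422 and 561 CPM in combination cultures (log2 fold change 0.79, interval -0.01 to 1.59), and 1 Control library and 1 combination library shared the level of 422 CPM.

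For mitochondrial respiration, none of the 77 tested nuclear-encoded subunits of oxidative phosphorylation was called, and their median log2 fold change was -0.103, between -0.161 and -0.067 over all 25 settings run. Of these, 6 were lower at unadjusted p under 0.05 and none was higher, a share of members lower that can be read against the 3.27% of all genes. After correction 7 were lower and none higher, where 2.65% of all genes were lower. In 18 every combination culture lay below every Control culture and in 3 above, against 10.4% and 10.9% of all genes. By library, against the Control mean, the list medians were 0.021, 0.018 and -0.024 in Control and -0.218, -0.052 and -0.098 in combination cultures. COX6B1, a subunit of cytochrome c oxidase, had the smallest p of them, with 79.2, 60.2 and 95.7 CPM in Control and 46.8, 50.6 and 51.0 CPM in combination cultures (log2 fold change -0.66, interval -1.08 to -0.25). The 13 mitochondrially encoded subunits had a median log2 fold change of -0.061 and none had an unadjusted p under 0.05, and mitochondrial transcripts made up 7.63 to 9.96% of counts in Control and 8.13 to 9.26% in combination cultures. MT-CO1, a catalytic subunit of cytochrome c oxidase, had 15900, 19000 and 19900 CPM against 19900, 17800 and 18200 CPM (log2 fold change 0.03, interval -0.31 to 0.37). SDHAF2, an assembly factor of succinate dehydrogenase outside the list and chosen here for its small p, had 25.4, 30.8 and 29.4 CPM against 18.7, 17.2 and 17.5 CPM (log2 fold change -0.68, edgeR adjusted p = 0.68).

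Genes of protein synthesis were mostly on the lower side by small amounts. The median log2 fold change was -0.172 over 40 tested genes of MYC and ribosome biogenesis, -0.160 over 78 proteins of the mitochondrial ribosome and -0.082 over 81 proteins of the cytosolic ribosome, all against -0.0096 over all genes, and these medians stayed below 0 in all 25 settings. By library, against the Control mean, the MYC list had medians of 0.02, -0.102 and 0.027 in Control and -0.356, -0.13 and -0.148 in combination cultures. The mitochondrial ribosome had 0.031, 0.053 and -0.053 against -0.304, -0.051 and -0.151. The cytosolic ribosome had 0.036, -0.092 and 0.029 against -0.048, -0.163 and -0.092, so in both ribosome lists the groups overlapped. No member was called. At unadjusted p under 0.05, 2, 7 and 7 members of these lists were lower, where 3.27% of all genes were, and 0, 1 and 0 higher. After correction, 2, 3 and 7 were lower, where 2.65% of all genes were. RPS26, a small ribosomal subunit protein, had 135, 102 and 135 CPM in Control and 85.1, 69.3 and 79.0 CPM in combination cultures (log2 fold change -0.67, interval -1.09 to -0.25), with edgeR adjusted p = 0.68. Ribosomal protein genes have many near-identical pseudogenes, so these counts are uncertain where reads match several copies.

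Hypoxia targets, the genes induced by the HIF factors when oxygen is short, had the highest median of all lists, 0.302 over 27 tested members. No member was called. Of the 27, 10 had an unadjusted p under 0.05, all higher in combination cultures, where 3.13% of all genes did, and in 10 of the 27 every combination culture lay above every Control culture and in none below, against 10.9% and 10.4% of all genes. After correction the median was 0.242 and again 10 were higher and 0 lower at unadjusted p under 0.05, and over all 25 settings the median lay between 0.241 and 0.362. PDK1, the kinase that shuts pyruvate dehydrogenase, had the smallest unadjusted p of all 1074 list members, with 10.7, 18 and 22.4 CPM in Control and 38.0, 34.1 and 30.3 CPM in combination cultures (2.00-fold higher, log2 fold change 1.00, interval 0.44 to 1.57, edgeR adjusted p = 0.68). All 3 combination cultures stood above all 3 Control cultures, and the Control cultures spread by more than the combination cultures.

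P4HA1, PLOD2 and BNIP3L, also hypoxia targets, were among the 10. P4HA1, a subunit of the collagen prolyl hydroxylase, had 57.2, 56.3 and 56.5 CPM in Control and 85.8, 82.3 and 72.2 CPM in combination cultures (log2 fold change 0.50, interval 0.19 to 0.81). PLOD2, a lysyl hydroxylase of collagen, had 49.9, 51.0 and 51.9 CPM against 77.7, 75.5 and 65.3 CPM (log2 fold change 0.52, interval 0.19 to 0.85). BNIP3L, a receptor for removal of mitochondria by autophagy, had 54.7, 61.8 and 55.7 CPM against 101, 90.0 and 78.5 CPM (log2 fold change 0.64, interval 0.15 to 1.14). Each of these 3 genes had its Control cultures below its combination cultures, and edgeR adjusted p was 0.68 for each.

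The other hypoxia targets with unadjusted p under 0.05 were NDRG1 (log2 fold change 0.61), KDM3A (0.40), INSIG2 (0.40), BNIP3 (0.34), BHLHE40 (0.34) and EGLN1 (0.26), which encodes the prolyl hydroxylase that marks HIF for destruction. Several well-known targets stood near or below 0 on the same scale. Among them were SLC2A1, the glucose transporter (-0.02, and 0.18 after correction), VEGFA, the angiogenic factor (-0.09), ADM (-0.14), P4HA2 (-0.29) and CA12 (-0.36). HIF1A itself had a log2 fold change of 0.07. The median over the list in each library, against the Control mean, was -0.003, 0.045 and -0.004 in Control, 0.321, 0.274 and 0.139 in combination, 0.472, 0.151 and 0.155 in Telaglenestat and 0.018, 0.182 and -0.056 in Palbociclib cultures. Telaglenestat cultures thus stood within the range of or above the combination cultures, and 1 Palbociclib culture lay within that range too.

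Because the HIF factors bind the core ACGTG, the promoters of these genes were searched for it, from 250 bases before to 50 bases after the start in RefSeq, GRCh38.p14. ACGTG on either strand was present in 6790 of 27305 genes (24.9%), in 13 of 23 hypoxia targets with a promoter in that table (56.5%) and in 7 of the 8 with unadjusted p under 0.05 (87.5%). The related GCGTG was present in 40.6% of all genes, 65.2% of the hypoxia targets and 4 of the 8. The list was made of HIF-induced genes and the 8 were picked by p-value from these data, so these shares cannot serve as a test. A match is a description of letters in a window and not a bound site. Whether HIF factors acted in these cultures was not tested. Of the hypoxia targets whose levels were given above and did not overlap between the groups, BNIP3L had no promoter among those searched. Stretches upstream of the start are shown for the others, with the core in capitals (CACGT is ACGTG read on the other strand), 5′ to 3′ on the strand of the gene, for PDK1 (chr2:172556057-172556089, plus strand), P4HA1 (chr10:73096923-73096977, minus strand) and PLOD2 (chr3:146161301-146161355, minus strand).
PDK1: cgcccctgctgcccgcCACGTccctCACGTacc
P4HA1: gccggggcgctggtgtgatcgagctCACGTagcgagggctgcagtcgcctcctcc
PLOD2: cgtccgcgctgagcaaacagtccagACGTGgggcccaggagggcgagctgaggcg

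No list of the 37 held a called member, over 1074 distinct tested genes. At unadjusted p under 0.05, 28 of them were higher (2.61%) and 48 lower (4.47%), beside 3.13% and 3.27% of all genes. List medians lay between -0.308 for the pentose phosphate pathway, which makes NADPH and ribose, and the 0.302 of hypoxia targets. TALDO1, a transaldolase of the pentose phosphate pathway, had 83.4, 69.3 and 87.5 CPM in Control and 58.1, 55.5 and 50.6 CPM in combination cultures (log2 fold change -0.55). The list median was -0.173 after correction. The ATF4 and integrated stress response list had a median of 0.142 as counted and 0.213 after correction.

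Within MAPK output and feedback, whose median was -0.076 as counted and 0.170 after correction, 4 of 31 members were higher and none lower at unadjusted p under 0.05, where 3.13% of all genes were higher. After correction 3 were higher and 1 lower, and as counted 17 of the 31 had a log2 fold change below 0. The 4 were the ERK phosphatases DUSP4 and DUSP6 (log2 fold change 0.49 and 0.50), the ETS factor ETV1 (0.52) and PHLDA1 (0.29). Among members without such a p, DUSP1 and DUSP2 stood on the lower side (-0.51 and -0.52). DUSP6 had 147, 93.3 and 126 CPM in Control and 197, 151 and 171 CPM in combination cultures, which did not overlap. SAT1, which acetylates polyamines, had 178, 154 and 171 CPM against 408, 230 and 231 CPM (log2 fold change 0.79), so that 1 combination culture stood far above the others. Among 43 epithelial and mesenchymal genes, whose median was -0.058 as counted and 0.049 after correction, 4 were lower and 1 higher at unadjusted p under 0.05, and 2 lower and 1 higher after correction. Of all genes, 3.27% were lower and 3.13% higher as counted, and 2.65% lower and 2.76% higher after correction. The members lower as counted were the keratins KRT8, KRT18 and KRT80 (log2 fold change -0.62, -0.49 and -0.46) and the splicing factor ESRP2 (-0.44), and its relative ESRP1 was higher (0.43). The adhesion genes CDH1 and EPCAM had log2 fold changes of 0.16 and 0.01. Levels of 409, 408 and 408 CPM of KRT8 in combination cultures stood below the 465 to 719 CPM of Control.

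Cultures of the single drugs place the combination cultures among the others. In the same fit, 0 of 13985 genes (0%) were called against Palbociclib cultures and 0 (0%) against Telaglenestat cultures, with 277 and 1969 genes at unadjusted p under 0.05 (478 and 937 after correction), and the test of whether the combination departed from the sum of both single drug differences called 0 (0%), with 287 at unadjusted p under 0.05. DESeq2 called 3, 98 and 3 genes in these comparisons. These comparisons use the same 3 combination libraries as the comparison with Control. The count against Telaglenestat cultures rose to 916 without Telaglenestat replicate 1, and replicate 2 had a GC slope of 0.418, outside the range of the other cultures, and the part of these libraries in the count was not tested further. PDK1 had 22.9, 26.1 and 15 CPM in Palbociclib and 33.1, 22.6 and 27.4 CPM in Telaglenestat cultures, and its log2 fold change in combination cultures was 0.69 against the first and 0.30 against the second. For the hypoxia list, the median was 0.254 against Palbociclib and -0.016 against Telaglenestat cultures.

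The same contrast in the tumors, 4 combination against 3 Control libraries, was set beside that of the cultures. A loss over time was not observed, since the link from a culture to a sequenced tumor is not given. The difference between the contrasts, cultures minus tumors, was tested for 15466 genes over all 28 libraries and called 450 (2.91%), 123 more positive and 327 more negative in cultures. In the same fit, 6269 genes were called between combination and Control tumors, while the fit of the cultures alone called 1 of 13985. A difference that was not called thus does not show that the 2 contrasts were alike. The tumors are xenografts that hold mouse cells, whose reads were not separated here, and their part in the differences was not tested. CPM values were scaled among tumors and among cultures separately, so levels are compared only within each. After correction 387 genes were called, 190 more positive and 197 more negative, so the split between directions depended on it. Without combination replicate 3 the count was 95 and without Control replicate 2 it was 126.

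CCND1, the cyclin partner of the kinases that Palbociclib blocks, was higher in combination tumors and was not called in cultures. CCND1 stood at 511, 526 and 518 CPM in Control tumors and 1120, 1210, 1080 and 1060 CPM in combination tumors (log2 fold change 1.21), against -0.15 in cultures, a difference of -1.36 (SE 0.129, edgeR adjusted p = 7.32e-07). MKI67 moved in the opposite direction in tumors, with 450, 538 and 480 CPM in Control and 270, 215, 176 and 180 CPM in combination tumors (log2 fold change -1.11), and the difference was 1.03 (SE 0.204, edgeR adjusted p = 0.00773). Both genes remained called in the 15 alternatives run for this test. MYC, GLUD1 and CDKN1A had differences of -0.20, -0.44 and 0.62 that did not pass (edgeR adjusted p = 0.557, 0.0598 and 0.0577).

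G2/M and mitosis genes were lower in combination tumors, with a median log2 fold change of -0.673 against -0.047 in cultures, and for 16 of 52 the difference was called, all more positive in cultures, where 0.795% of all genes were more positive and 2.11% more negative. They included PLK1 (difference 1.28), FOXM1 (1.37), AURKB (1.54) and BIRC5 (0.91). The number was 7 to 24 when a library was left out, lowest without combination replicate 2, and 28 after correction. All 13 mitochondrially encoded subunits had a called difference, more negative in cultures, with a median log2 fold change of 1.208 in tumors and of -0.061 in cultures. MT-CO1 stood at 14800, 13300 and 13500 CPM in Control tumors and 33000, 29300, 28100 and 27900 CPM in combination tumors, a difference of -1.16 (edgeR adjusted p = 0.00784). The number called was 4 without combination replicate 3 and 8 after correction. Mitochondrial transcripts made up 6.78 to 7.22% of counts in Control tumors and 13.2 to 14.8% in combination tumors.

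The counts of members that follow can be read against all genes, of which 0.795% were called more positive and 2.11% more negative in cultures. Genes of protein folding and export in the endoplasmic reticulum showed 6 of 42 called differences, all more negative in cultures, HSPA5, the main chaperone there, among them (-0.65). The number was 2 after correction and 0 to 8 when a library was left out, 0 without combination replicate 3. Replication-dependent and variant histones showed 3 of 15, all more positive in cultures, with 5 after correction and 0 to 3 when a library was left out, 0 without Control replicate 2 or combination replicate 1. For the cytosolic ribosome it was 4 of 81, all more negative, with 1 after correction, 4 more positive and 6 more negative with DESeq2, and 0 to 1 without any one library other than combination tumor replicate 4. Of the hypoxia targets, which had a median log2 fold change of 0.266 in tumors and 0.302 in cultures, 1 of 27 had a called difference, PFKFB4 (1.49). The members with unadjusted p under 0.05 in cultures did not all move alike in tumors. There, log2 fold changes were -0.29 for BHLHE40, -0.04 for NDRG1 and -0.01 for BNIP3. They were 0.27 for KDM3A, 0.31 for PDK1, 0.42 for EGLN1, 0.47 for INSIG2, 0.56 for BNIP3L, 0.62 for PLOD2 and 0.76 for P4HA1. P4HA1 stood at 291, 309 and 317 CPM in Control tumors and 500, 526, 438 and 468 CPM in combination tumors, and the difference from its culture value was -0.26 (edgeR adjusted p = 0.397). PDK1 stood at 92.0, 103 and 104 against 108, 130, 104 and 116 CPM, with a difference of 0.70 (edgeR adjusted p = 0.123).

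Level by chromosome gave no large shift. The largest median log2 fold change of a chromosome was -0.248, on chromosome 19, and it was -0.026 after correction for GC content and gene length. After correction, no chromosome exceeded 0.042 in size (chromosome 11, -0.042). Among runs of 40 neighbouring tested genes, the largest corrected median was -0.171 at chr16:66878589-67969601 (hg38), and the medians of the 3 combination cultures there were -0.138, -0.125 and -0.014.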

How the data were processed

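Poly(A) RNA was sequenced with the NEBNext Ultra RNA kit, and per the study's methods uracil marked the second cDNA strand, while the strand setting of the counting is not given in the sources used here. The deposited file holds counts per gene, whole reads without normalization, which the authors made from reads aligned to hg38; STAR and CASAVA 1.8 are named in the submitters' processing notes, and the annotation release is not given in the sources used here. Of 58278 gene IDs, 57940 matched GENCODE 29, the rest holding 0.0287% of counts. The deposited counts are not normalized, so they were scaled here.

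The 12 cultures were fitted as 4 group means with the edgeR quasi-likelihood test (edgeR 4.0.16, limma 3.58.1, R 4.3.3) after a filter on low counts (minimum count 10), TMM scaling and Benjamini-Hochberg adjustment over 13985 genes, with a threshold of 0.05. Log2 fold changes and 95% intervals come from that fit. DESeq2 1.42.0, other filters and scalings, offsets fitted on gene GC content and length, a replicate block and leaving out each library were alternatives. Chosen after seeing the data were the fit on 6 libraries with those offsets, leaving out the Telaglenestat cultures or each single drug culture, the summed TICAM2 locus and the difference between cultures and tumors. The fit was tested on simulated data. Replicate numbers are not stated to pair the cultures in the sources used here, and they were not used as pairs. Deviations from group means of same-numbered Control and combination cultures correlated at -0.001, 0.134 and 0.053. For Control and Telaglenestat cultures the values were -0.217, -0.423 and -0.253. With 3 libraries a group these values cannot settle whether the numbers mark pairs or a shared batch.

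Named genes were MYC, CCND1, GLUD1, MKI67 and CDKN1A, called protein-coding genes, and, where a list held no call, its first 2 tested members; the other genes named were chosen after their values were seen, and some genes under this rule are not reported here. Members and gene lists were chosen with earlier results of these data known. Depth sets the precision, and a count of 0 was read as up to 3 counts, for counting error only.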

Additional observations from a re-analysis of the deposited data

Results flagged for a closer look

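The difference between cultures and tumors in the contrast of combination against Control was tested in all 28 libraries. CCND1 differed by -1.36 (SE 0.129, edgeR adjusted p = 7.32e-07) and MKI67 by 1.03 (SE 0.204, edgeR adjusted p = 0.00773) on the log2 scale, cultures minus tumors. In tumors, every combination library lay above every Control library for CCND1 and below for MKI67. In cultures, the groups overlapped for MKI67, and for CCND1 all combination cultures lay below all Control cultures.

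TICAM2 differed by -11.16 (edgeR adjusted p = 0.0163), a size that depends on the prior count since all combination cultures held 0 counts. It was not called without combination replicate 3 (edgeR adjusted p = 0.0616). Among the 4 combination tumors, TICAM2 stood at 16.2, 13.9, 0.568 and 13.5 CPM, and the value of 0.568 lay far from the other 3. In that library TICAM2 had 4 counts and the readthrough gene TMED7-TICAM2 had 157.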

How the results depend on the processing

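The number of genes called between combination and Control cultures was 1, and it became 2 with DESeq2, 3 with only the 6 libraries compared (with or without correction for GC content and length), 175 with no filter on low counts (47 higher, 128 lower), and 0 with at least 10 counts in every library, with the replicate block, or with TICAM2 and TMED7-TICAM2 summed; leaving out a library gave 0 to 1. The block gave edgeR adjusted p = 0.0861 for TICAM2. Whether the numbers pair the cultures is not given, so no conclusion is drawn from the lost call. Against Palbociclib cultures the count was 0, and 3 with DESeq2 and 1 with the correction. Against Telaglenestat cultures it was 0, and 98 with DESeq2 (12 higher, 86 lower) and 0 to 916 when a library was left out (916 without Telaglenestat replicate 1, 1 without replicate 2). For the departure from the sum of the single drugs it was 0, and 3 with DESeq2 and 0 to 1 when a library was left out. For the difference between cultures and tumors it was 450, and 687 with DESeq2 and 95 to 460 when a library was left out. Called list members numbered 0, and 37 with no filter. The largest chromosome median, 0.248 in size, was 0.106 with DESeq2, 0.104 with no filter, 0.042 with the correction, 0.047 with block and correction, 0.037 with 6 libraries and correction, and 0.184 to 0.369 when a library was left out. Apart from the fewer or added genes and libraries these settings use, the cause was not tested. Over all settings, 5664 values of named genes kept their side of the threshold, 33 gained a call, 12 lost one, 271 moved, and none called as reported changed sign, while 151 values of other results, 56 in number, did. Depth limits the genes of low counts, as the 95% interval lay within -1 to 1 for 65.4% of all genes and for 89% of those with a mean of at least 3 log2 CPM.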
